A study of Homo sapiens with 30 samples.

Results

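FLT3, KIT and 8 cytokine receptor genes of myeloid cells were followed in human cell lines of acute myeloid leukemia (AML) after overexpression of miR-1 or deletion of MPC1. The 10 genes were chosen by name, with earlier results of these data known. Shares of the members with a difference between groups are therefore not independent evidence. The members were the receptor tyrosine kinases FLT3, KIT and CSF1R and the cytokine receptor chains CSF2RA, CSF2RB, CSF3R, IL3RA, IL6R, IL7R and IFNGR1. All 10 were among the 60675 genes of the count table of the overexpression series and the 58051 genes of that of the knockout series, and all 10 passed the filter on low counts, with 17542 and 14490 genes tested. The overexpression series held 12 libraries, of MV4-11 and Molm-14 cells with a lentiviral vector (a GFP marker under the EF1α promoter) carrying MIR1-2 host gene sequence (OE) or with an empty vector (EV). The knockout series held 18 libraries, of MV4-11, Molm-14 and THP-1 cells in which MPC1, a subunit of the mitochondrial pyruvate carrier, was targeted by CRISPR/Cas9 (KO), or with an empty vector. Each of the 10 groups had 3 libraries. The vectors of the MV4-11, Molm-14 and THP-1 KO lines carried a GFP marker and a single guide RNA. MV4-11 and Molm-14 carry an internal tandem duplication in FLT3 (FLT3-ITD), and THP-1, a monocytic line, does not. Counts per gene do not show whether the FLT3 RNA carries the duplication. No source used here states whether the replicates were separate cultures, so p-values measure the spread between these libraries, which may be technical.

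Receptor tyrosine kinases such as FLT3, KIT and CSF1R bind a growth factor on the cell surface, pair, and phosphorylate themselves and their adaptors, which starts RAS/MAPK, PI3K and STAT signaling. The cytokine receptor chains have no kinase of their own, and the receptor complexes that they form signal through JAK kinases. In blood formation these receptors set which growth factors a progenitor or monocyte can answer, and internal tandem duplications keep the FLT3 kinase active without its ligand. A level below is in CPM (counts-per-million with library sizes scaled by TMM), given as mean ± SD over 3 libraries, and a gene was called where the edgeR quasi-likelihood test gave a false discovery rate (FDR) under 5% over all tested genes of its series. Changes are given as log2FC, the log2 of the ratio of the first group to the second. In bulk RNA, fewer cells that express a gene and less of its RNA in each cell cannot be told apart.

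Because miR-1 represses transcripts through matches to its seed (bases 2 to 8), the 3′ UTR of each member's canonical transcript was searched first for these matches. The mature miRNA, from RefSeq, is shown with the seed in capitals, since the sites below pair with it.
hsa-miR-1-3p: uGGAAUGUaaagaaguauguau

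Of the 10 members, FLT3, CSF2RB and IL3RA held a 7mer match and IL7R a 6mer, and the other 6 held none. The letters searched, on the transcript strand, were ACATTCCA (8mer), ACATTCC (7mer-m8), CATTCCA (7mer-A1) and CATTCC (6mer), and each position was counted once, as the longest match that fits it. No member held an 8mer. Of 19559 canonical 3′ UTRs (GENCODE 44, GRCh38), 19.9% held an 8mer or a 7mer and 20.5% held a 6mer. The matches are shown with the matching bases in capitals, as they stand in the transcript.
FLT3 (7mer-m8, chr13:28003504-28003528, minus strand): gccacctacACATTCCttccagagc
CSF2RB (7mer-A1, chr22:36938774-36938798, plus strand): agatatactCATTCCAtctccccct
IL3RA (7mer-m8, chrX:1382559-1382583, plus strand): caggaatggACATTCCtaacgggtg
IL7R (6mer, chr5:35878274-35878297, plus strand): ttccataagCATTCCttccacctc
A match is a description of the sequence, and whether miR-1 bound at any of these places was not measured.

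Libraries of the overexpression series had totals of 15543301 to 20939985 counts, and those of the knockout series had 5339360 to 9106478. MPC1 stood lower in KO than in EV in each line, with no overlap, but its RNA was not lost. The KO libraries still held 23.5 to 26.0 CPM in MV4-11, 33.2 to 41.0 in Molm-14 and 50.3 to 58.9 in THP-1. The EV libraries of the same lines held 53.7 to 58.3, 72.9 to 80.05 and 90.6 to 100.3 CPM. The 8 myeloid markers summed to between 978 and 8435 CPM in every library. Marker lists of T cells, erythroid cells, fibroblasts, epithelium and muscle summed to at most 1.85 CPM. The B-cell list reached 120 CPM in Molm-14, where PAX5 led it, and stayed at or below 9.92 CPM in MV4-11 and 4.71 CPM in THP-1. In the overexpression series, MV4-11 OE replicate 1 and MV4-11 EV replicate 3 stood apart, with 317 and 52.5 CPM summed over 8 interferon-stimulated genes against 10.1 to 12.2 CPM in the other 4 MV4-11 libraries.

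To see which receptors the lines carried without OE or KO, the EV libraries were set side by side on a per-length scale (CPM per kilobase of the gene's combined exons). FLT3 was the most abundant member in both FLT3-ITD lines, and IL6R was in THP-1. In the knockout series, FLT3 stood at 174.5 CPM per kilobase in MV4-11 EV and 144 in Molm-14 EV, above 98.9% and 98.4% of tested genes with a known length, and at 38.5 in THP-1 EV, above 92.5%. IL6R, the ligand-binding chain of the interleukin-6 receptor, stood at 93.2 CPM per kilobase in THP-1 EV, above 97.6% of tested genes. At the other end, KIT stood at 0.0702 CPM per kilobase in Molm-14 EV, above 7.44% of tested genes, and IL7R at 0.470 in THP-1 EV, above 11.5%. KIT and CSF3R have long combined exons (11.3 and 10.6 kilobases over all annotated transcripts), which lowers their value on this scale.

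In MV4-11 EV of the knockout series the order after FLT3 was IL6R (29.4 CPM per kilobase), IL3RA (24.1), IFNGR1 (21.4), CSF2RA (9.82), CSF1R (8.80), CSF2RB (7.95), IL7R (7.79), CSF3R (4.69) and KIT (1.595). The libraries of CSF2RA, CSF1R, CSF2RB and IL7R overlapped from each of these genes to the next, so their order is not resolved, and the other neighbors did not overlap. In Molm-14 EV the order was FLT3, IL6R (37.9), IL3RA (34.0), IFNGR1 (26.8), CSF2RA (9.23), CSF3R (4.19), CSF2RB (2.47), IL7R (2.42), CSF1R (0.436) and KIT, with an overlap between CSF2RB and IL7R alone. In THP-1 EV it was IL6R, FLT3, IFNGR1 (26.8), IL3RA (10.2), CSF1R (9.49), CSF3R (8.18), CSF2RA (6.46), CSF2RB (4.86), KIT (2.06) and IL7R, where IL3RA overlapped CSF1R and CSF1R overlapped CSF3R. On this scale KIT was thus last or next to last in each line of this series. These orders depend on the exon lengths used. In CPM, without the lengths, CSF3R (49.7) stood above IL3RA (41.1) in MV4-11 EV.

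**Figure D1:**
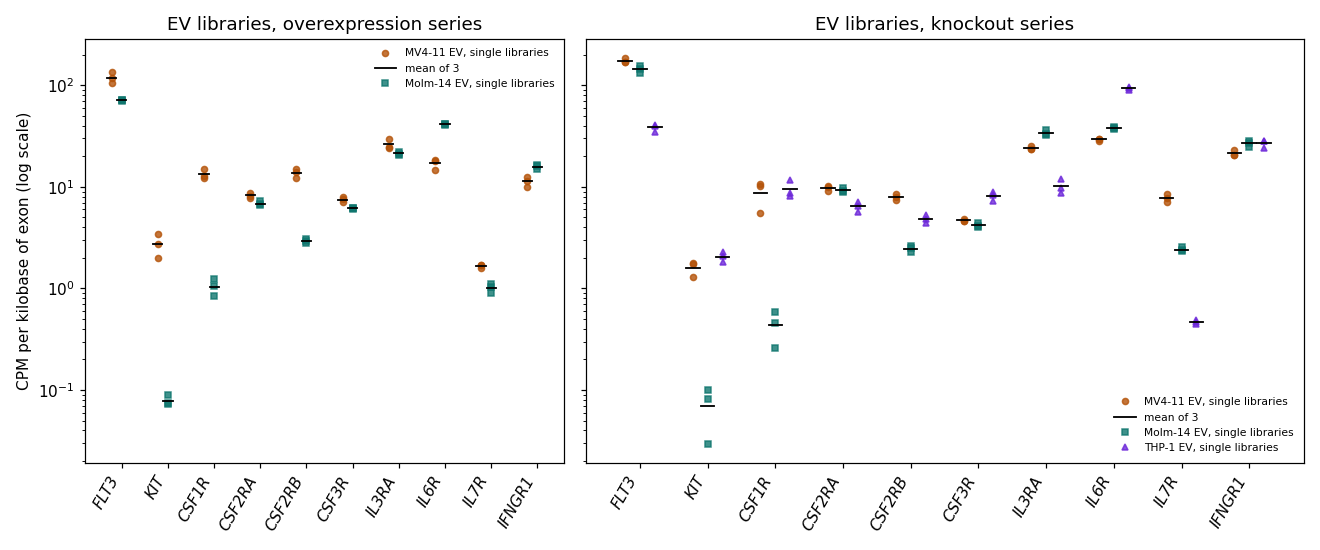
Level of the 10 receptor genes in single EV libraries (points) with the mean of 3 (line), in CPM per kilobase of combined exons on a log axis, for the overexpression series (left) and the knockout series (right). FLT3 is the highest gene in MV4-11 and Molm-14, IL6R is the highest in THP-1, and KIT and CSF1R are far lower in Molm-14 than in the other lines.

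Among the receptor tyrosine kinases, FLT3, the receptor of FLT3 ligand on early progenitors, had 771, 707 and 699 CPM in the MV4-11 EV libraries of the knockout series, 606, 550 and 643 in Molm-14 EV and 169, 167 and 144 in THP-1 EV. Every library of the FLT3-ITD lines was above every THP-1 library. The THP-1 level was 0.221 times that of MV4-11 (log2FC −2.18, SE 0.089, edgeR FDR 7.27e-18) and 0.267 times that of Molm-14 (edgeR FDR 1.19e-16). MV4-11 was 1.21-fold above Molm-14 (edgeR FDR 0.00574). With 1 line without the duplication, the FLT3 genotype and the other differences between the lines cannot be told apart.

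KIT, the receptor of stem cell factor, was near the detection limit in Molm-14. Its libraries had 2, 10 and 7 counts in Molm-14 EV, against 126, 145 and 130 in MV4-11 EV and 156, 157 and 142 in THP-1 EV. MV4-11 was 20.8-fold above Molm-14 (log2FC 4.38, SE 0.240, edgeR FDR 5.96e-15) and THP-1 was 26.9-fold above it (edgeR FDR 4.46e-16). THP-1 was 1.29-fold above MV4-11 (edgeR FDR 0.0244), a call that was kept in 3 of 6 fits that left out 1 library (FDR up to 0.183 in the others).

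CSF1R, the receptor of macrophage colony-stimulating factor and a marker of the monocyte lineage, had the same contrast. Molm-14 EV libraries had 8, 21 and 23 counts, against 248, 386 and 358 in MV4-11 EV and 334, 280 and 333 in THP-1 EV. MV4-11 was 19.3-fold above Molm-14 (edgeR FDR 1.65e-09) and THP-1 20.9-fold (edgeR FDR 8.46e-10). THP-1 and MV4-11 overlapped in this gene (log2FC 0.11, SE 0.209, edgeR FDR 0.655).

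Among the chains that share signaling partners, CSF2RB, the common beta chain that the receptors for GM-CSF, interleukin-3 and interleukin-5 use, was 3.22-fold higher in MV4-11 EV than in Molm-14 EV (39.6 ± 2.78 against 12.3 ± 0.757 CPM, edgeR FDR 3.26e-12), with THP-1 EV between them (24.2 ± 2.33 CPM). CSF2RA, the alpha chain of the GM-CSF receptor, stood at 40.2 ± 2.56 CPM in MV4-11 EV and 37.8 ± 1.81 in Molm-14 EV, which overlapped, and at 26.4 ± 2.90 CPM in THP-1 EV, below both (edgeR FDR 9.57e-05 and 6.01e-04). IL3RA, the alpha chain of the interleukin-3 receptor, known as CD123, stood at 58.1 ± 3.17 CPM in Molm-14 EV, 41.1 ± 1.57 in MV4-11 EV and 17.4 ± 2.88 in THP-1 EV, and all 3 differences were called. The 2 alpha chains lie in the pseudoautosomal region of the sex chromosomes, and the tables list them under a single identifier each.

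The remaining receptors gave other orders. CSF3R, the receptor of granulocyte colony-stimulating factor, was highest in THP-1 EV (86.7 ± 8.47 CPM), 1.75-fold above MV4-11 and 1.95-fold above Molm-14 (edgeR FDR 1.10e-07 and 4.18e-09). IL6R was lowest in MV4-11 EV (205.5 ± 4.72 CPM), followed by Molm-14 EV (265 ± 5.78) and THP-1 EV (652 ± 26.6), with each difference called. IL7R, the alpha chain of the interleukin-7 receptor, which is best known from lymphoid progenitors and T cells, went the other way, with 46.9 ± 3.90 CPM in MV4-11 EV, 14.6 ± 0.654 in Molm-14 EV and 2.83 ± 0.105 in THP-1 EV. The THP-1 libraries held 22, 19 and 15 IL7R counts. IFNGR1, the ligand-binding chain of the interferon-gamma receptor, varied least, from 75.9 ± 4.95 CPM in MV4-11 EV to 94.9 ± 5.80 in Molm-14 EV and 95.2 ± 8.59 in THP-1 EV, and the last pair was not called apart (edgeR FDR 0.939).

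Large shares of all genes also differ between lines, so a call between lines is common. In the knockout series, 8 of 10 members were called between MV4-11 and Molm-14, where 61.7% of all tested genes were, and 9 of 10 in each comparison with THP-1, where 67.5% (against MV4-11) and 69.6% (against Molm-14) of all tested genes were. In the overexpression series all 10 members were called between MV4-11 EV and Molm-14 EV, where 64.8% of all tested genes were.

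The EV libraries of the 2 series share no library, so MV4-11 and Molm-14 could be compared in each. Of the 10 members, 9 had the same direction in both series, against 84.5% of the 13627 genes tested in both. Of the members, 7 were called in both in the same direction, as were 7176 of those 13627 genes. These 7 were FLT3, KIT, CSF1R, CSF2RB and IL7R, higher in MV4-11, and IL6R and IFNGR1, higher in Molm-14. IL3RA was the member with opposite directions. In the overexpression series it had 41.6, 42.5 and 51.0 CPM in MV4-11 EV and 35.5, 36.0 and 38.0 in Molm-14 EV, a log2FC of 0.30 (SE 0.083, edgeR FDR 0.00353). In the knockout series the log2FC was −0.49 (SE 0.0995, edgeR FDR 1.02e-04), with no overlap between the lines in either series. Of 7341 genes called in both series, 165 (2.25%) had opposite directions. The sizes also differed for other members. IL6R was at 0.413 times the Molm-14 level in MV4-11 of the overexpression series and at 0.776 times in the knockout series, and IL7R was 1.64-fold and 3.22-fold higher in MV4-11. The 2 tables list different numbers of genes, and the part of this in these differences was not tested.

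**Figure D2:**
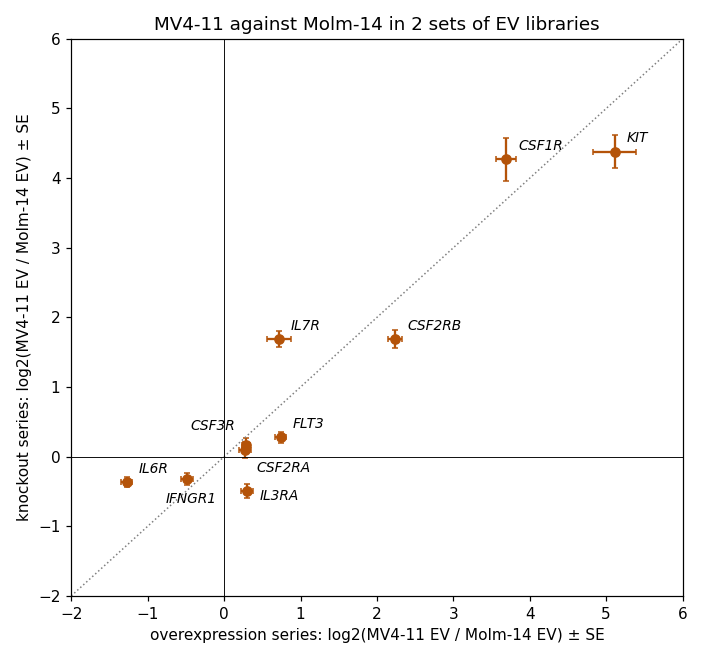
Log2 ratio of MV4-11 EV to Molm-14 EV for each receptor gene in the overexpression series (horizontal axis) and in the knockout series (vertical axis), with SE bars and a dotted line of equality. KIT, CSF1R and CSF2RB are far above 0 on both axes, and IL3RA lies at 0.30 on the horizontal and −0.49 on the vertical axis.

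To ask whether miR-1 changed the receptors, OE was compared with EV. In MV4-11, IL7R fell and no other member was called. IL7R counts were 76, 77 and 60 with OE and 178, 213 and 163 with EV, or 4.54, 3.98 and 3.33 CPM against 10.3, 10.3 and 9.60 CPM. Each OE library was below each EV library. The level was 0.392 times that of EV (log2FC −1.35, SE 0.161, edgeR FDR 2.40e-04), and 0.177% of all tested genes were called in this comparison, 0.125% as lower. The fall was called in all 6 fits that left out 1 of the 6 libraries, and without the 2 libraries high in interferon-stimulated genes it was −1.49 (edgeR FDR 9.48e-06). The 3′ UTR of IL7R holds the 6mer printed above and no longer match.

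In Molm-14, IL7R had 4.94, 5.75 and 6.59 CPM in OE and 6.69, 6.28 and 5.44 in EV, which overlapped (log2FC −0.10, SE 0.162, edgeR FDR 1). The difference of the effect between the lines was −1.25 on the log2 scale (SE 0.228, edgeR FDR 0.0506), which did not pass the threshold in the fit used here. It passed with DESeq2 (FDR 0.00352), with DESeq2 size factors in edgeR (FDR 0.0459), with no filter on low counts (FDR 0.00305) and in 1 of 12 fits that left out 1 library (FDR 0.0192, without MV4-11 OE replicate 1). It did not pass in the other 11 of those fits (FDR up to 0.278) or with the replicate number as a block (FDR 0.474). In this test of the difference between lines edgeR called 0 of 10 members and 0.0456% of all tested genes, DESeq2 called 1 member, and 4 members and 5.30% of genes had an unadjusted p under 0.05.

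The 3 members with a 7mer match were not called in either line. At an unadjusted edgeR p under 0.05 there were 3 of 10 members in MV4-11, against 5.90% of all tested genes. These were IL7R, CSF2RB and IL3RA, each lower in OE. FLT3 stood at 488 ± 48.9 CPM in MV4-11 OE and 494 ± 58.6 in EV (log2FC −0.02, SE 0.076), and at 303 ± 5.002 and 296 ± 5.90 CPM in Molm-14 (0.03, SE 0.077). CSF2RB had 48.8, 61.5 and 58.2 CPM in MV4-11 OE and 70.2, 74.8 and 61.3 in EV. The groups overlapped, and the log2FC of −0.29 (SE 0.085) had an edgeR FDR of 0.279, which was 0.0218 with no filter on low counts and ran up to 0.996 over the other alternatives. In Molm-14 CSF2RB stood at 15.5 ± 0.719 CPM in OE and 14.6 ± 0.648 in EV (0.09, SE 0.103). For IL3RA the log2FC was −0.21 with an SE of 0.082 in MV4-11 (edgeR FDR 0.671), and 0.04 with an SE of 0.084 in Molm-14 (edgeR FDR 1).

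Among the 6 members with no match, log2FC values ran from −0.10 (CSF2RA) to 0.10 (CSF1R) in MV4-11 and from −0.05 (IFNGR1) to 0.28 (CSF1R) in Molm-14, and none was called. KIT spread widely in MV4-11, with 23.3, 27.2 and 36.7 CPM in OE and 31.2, 38.8 and 22.4 in EV, and its direction turned when single libraries were left out. IL7R was also the 1 member of 10 whose groups did not overlap in MV4-11, against 9.17% of all tested genes. In Molm-14, where 0 members were called by edgeR or by DESeq2 and 0.00570% of all tested genes by edgeR, 1 member had an unadjusted p under 0.05, against 4.38% of all tested genes. That was CSF3R, with 74.8, 77.3 and 75.2 CPM in OE and 65.0, 66.0 and 64.9 in EV (log2FC 0.21, SE 0.052, edgeR FDR 0.789). The 2 groups did not overlap for CSF3R and for IL6R, 2 of 10 members, against 14.9% of all tested genes. In a fit of the 6 Molm-14 libraries by themselves CSF3R was called (FDR 0.00722, and up to 1 over the other alternatives).

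**Figure D3:**
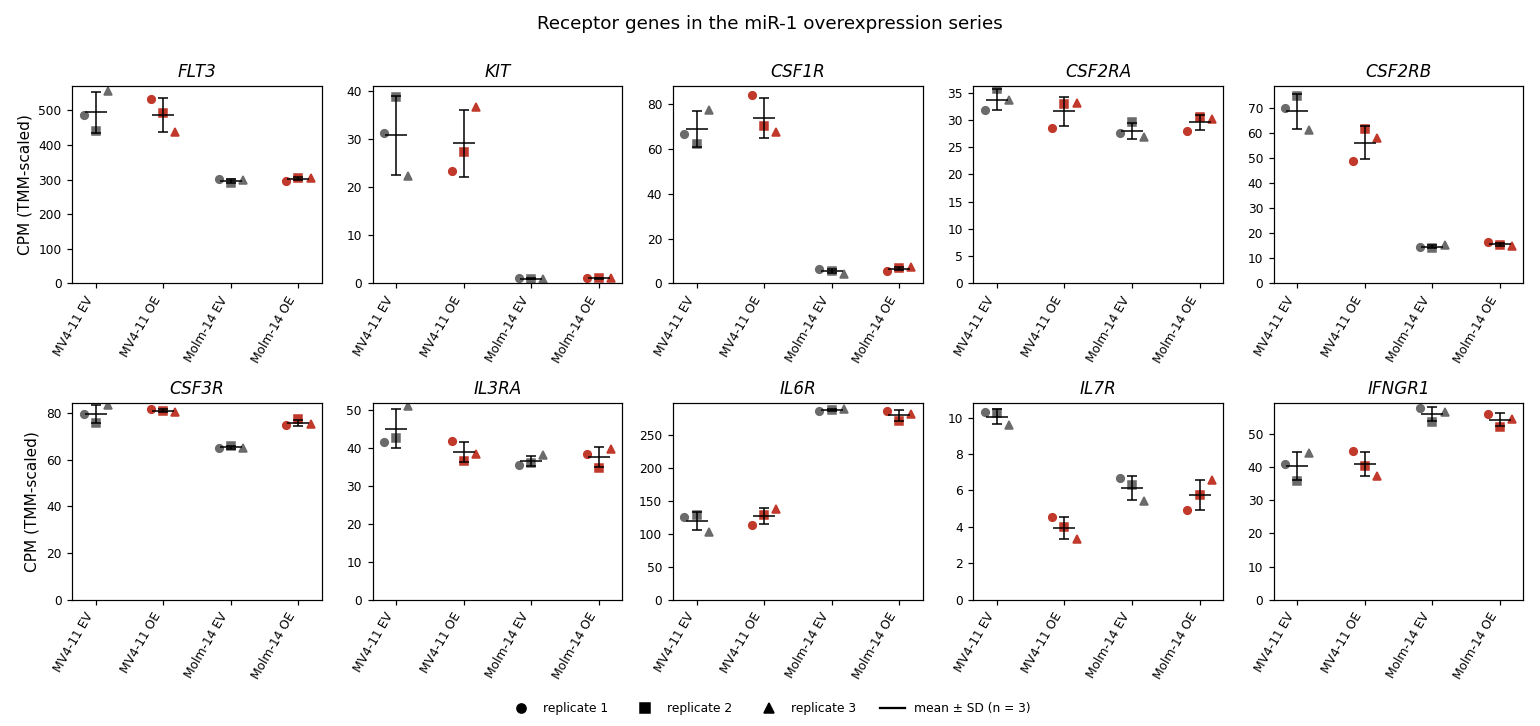
CPM of the 10 receptor genes in each library of the overexpression series, with OE in red, EV in grey, a symbol for each replicate number, and the mean ± SD of 3 libraries in black. Each vertical axis starts at 0. IL7R in MV4-11 is the panel where OE and EV separate by the widest ratio, 3.95 against 10.06 CPM.

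Deletion of MPC1 was examined next, in 3 lines. KIT was called higher in MV4-11 and, on at most 17 counts per library, in Molm-14. IL3RA was called higher in MV4-11, and no member was called in THP-1. In MV4-11, KIT had 220, 207 and 245 counts in KO and 126, 145 and 130 in EV, or 31.3, 25.9 and 30.8 CPM against 14.6, 19.5 and 20.0 CPM. Each KO library was above each EV library. KIT was 1.63-fold higher (log2FC 0.71, SE 0.138, edgeR FDR 0.00401), and it was called in all 6 fits that left out 1 library. In this comparison 5.41% of all tested genes were called, 3.17% as higher, and 2 of 10 members were called, both as higher. The count over all genes, 784, was 133 without EV replicate 3 and rose to 1400 without EV replicate 1.

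In Molm-14, KIT had 14, 17 and 13 counts in KO and 2, 10 and 7 in EV, or 2.21, 2.26 and 2.03 CPM against 0.336, 1.13 and 0.923 CPM. The groups did not overlap, and KIT was 2.54-fold higher (log2FC 1.34, SE 0.357, edgeR FDR 0.0392), on counts that are small in every library. The call was lost in 5 of 6 fits that left out 1 library (FDR up to 0.170, without EV replicate 1, which held 2 counts), in a fit of the 6 Molm-14 libraries by themselves (FDR 0.0867) and with the replicate number as a block (FDR 0.0784). It was the only member called, 1 of 10, where 2.40% of all tested genes were called and 1.34% as higher. Beside these values, the 8 myeloid markers summed to 1580 to 1723 CPM in Molm-14 KO and 1298 to 1474 in EV, and the 4 B-cell markers to 27.3 to 36.2 CPM in KO and 38.0 to 56.3 in EV, and their part in the Molm-14 results was not tested. In THP-1, KIT stood at 26.0 ± 2.12 CPM in KO and 23.3 ± 2.496 in EV (log2FC 0.16, SE 0.140, edgeR FDR 0.796). The differences of the KIT effect between lines were not called, with 0.54 on the log2 scale between MV4-11 and THP-1 (edgeR FDR 0.384), 1.18 between Molm-14 and THP-1 (edgeR FDR 0.238) and −0.64 between MV4-11 and Molm-14 (edgeR FDR 0.476). Over all 10 members, edgeR called 0 differences between MV4-11 and THP-1 (3 at an unadjusted p under 0.05, 0 by DESeq2), where 0.193% of tested genes were called and 9.05% had such a p. Between Molm-14 and THP-1 it called 0 (4 at an unadjusted p under 0.05, and 1, IL6R, by DESeq2), where 0.766% of tested genes were called and 7.80% had such a p.

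IL3RA had 58.2, 57.8 and 48.7 CPM in MV4-11 KO and 40.4, 43.0 and 40.1 in EV. It was 1.33-fold higher (log2FC 0.41, SE 0.0995, edgeR FDR 0.0155), and the groups did not overlap. The call was lost without EV replicate 3, KO replicate 1 or KO replicate 2 (FDR 0.0949, 0.103 and 0.0678) and when the 6 MV4-11 libraries were fitted alone (FDR 0.0566). The log2FC was 0.08 in Molm-14 KO and 0.03 in THP-1 KO (edgeR FDR 0.860 and 0.970).

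FLT3 had 886, 840 and 818 CPM in MV4-11 KO and 771, 707 and 699 in EV. The groups did not overlap, and the log2FC of 0.22 (SE 0.083) had an edgeR FDR of 0.112, which was 0.0171 with the replicate number as a block and up to 0.355 over the other alternatives. In Molm-14 FLT3 stood at 650 ± 31.3 CPM in KO and 600 ± 46.8 in EV (log2FC 0.12, edgeR FDR 0.717), and in THP-1 at 139.9 ± 14.7 and 160 ± 13.8 CPM (log2FC −0.20, edgeR FDR 0.588). The difference of the FLT3 effect between MV4-11 and THP-1 was 0.42 on the log2 scale (SE 0.122, edgeR FDR 0.204, 0.0352 with the block and up to 0.533 over the other alternatives).

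CSF1R depended on a single library. In MV4-11 EV it had 28.8, 52.0 and 55.2 CPM, and in MV4-11 KO 33.0, 29.0 and 33.1 CPM. EV replicate 1 thus lay just below the KO libraries, and the other EV libraries lay above them. The log2FC was −0.51 (SE 0.213, edgeR FDR 0.170), and it was −0.76 with that library left out (edgeR FDR 0.00378). It was also called with no filter on low counts (FDR 0.0194), and over the other alternatives the FDR ran up to 0.505. The 8 myeloid markers summed to 8435 CPM in that library and to 6700 and 7041 in the other 2 MV4-11 EV libraries, and the part of this in the CSF1R value was not tested. In Molm-14 CSF1R had 21, 30 and 15 counts in KO and 8, 21 and 23 in EV, which overlapped.

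The interleukin-6 and interleukin-7 receptor chains had log2FC values of opposite sign in the 2 FLT3-ITD lines, with no edgeR call within either. IL6R stood at 182 ± 5.795 CPM in MV4-11 KO and 205.5 ± 4.72 in EV (log2FC −0.18, SE 0.070, edgeR FDR 0.133, called by DESeq2 with an FDR of 0.0375, and 0.0375 to 0.395 over the alternatives), and at 294 ± 8.03 and 265 ± 5.78 CPM in Molm-14 (0.15, SE 0.069, edgeR FDR 0.430). IL7R stood at 41.0 ± 2.71 and 46.9 ± 3.90 CPM in MV4-11 (−0.19, SE 0.106, edgeR FDR 0.281), and at 19.3 ± 2.49 and 14.6 ± 0.654 CPM in Molm-14 (0.40, SE 0.126, edgeR FDR 0.109). In THP-1 KO the log2FC was −0.12 for IL6R (SE 0.068, edgeR FDR 0.673) and 0.21 for IL7R (SE 0.227, edgeR FDR 0.863). The difference of the effect between MV4-11 and Molm-14 was −0.33 for IL6R (SE 0.099, edgeR FDR 0.0954) and −0.60 for IL7R (SE 0.165, edgeR FDR 0.0673). Neither passed the threshold in the fit used here, and 0 of 10 members did, with 3 at an unadjusted p under 0.05, where 1.48% of all tested genes were called and 14.2% had such a p. With the replicate number as a block IL6R and IL7R were both called (FDR 0.0353 and 0.0479), and with DESeq2 IL6R was (FDR 0.00472). Over all alternatives the FDR ran from 0.00472 to 0.259 for IL6R and from 0.0479 to 0.2115 for IL7R.

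Among the other chains, CSF2RA had 46.6, 49.6 and 48.4 CPM in Molm-14 KO and 39.9, 36.5 and 37.1 in EV, which did not overlap (log2FC 0.36, SE 0.116, edgeR FDR 0.133, 0.0443 when these libraries were fitted alone and up to 0.411 over the other alternatives). CSF3R stood at 36.9 ± 1.80 CPM in Molm-14 KO and 44.4 ± 2.38 in EV (log2FC −0.26, SE 0.109, edgeR FDR 0.318). CSF2RB stayed between −0.19 and 0.06 on the log2 scale in the 3 lines. IFNGR1 had 122, 113 and 103 CPM in THP-1 KO and 101, 99.9 and 85.4 in EV, the only member whose groups did not overlap in THP-1 (log2FC 0.24, SE 0.091, edgeR FDR 0.532). In THP-1 0 members were called by edgeR or by DESeq2, with 2 (FLT3 and IFNGR1) at an unadjusted p under 0.05, and edgeR called 0.0897% of all tested genes, with 8.01% at such a p. Same-numbered THP-1 libraries deviated together, but KO replicate 1 was about as close to EV replicate 2 (correlation 0.361) as to EV replicate 1 (0.371). Within the 3 same-numbered pairs FLT3, CSF1R and IL6R were lower in KO each time and KIT and IFNGR1 higher each time. That was 5 of 10 members, against 39.8% of all tested genes with 1 direction in all 3 pairs. With 3 pairs the smallest two-sided exact p is 0.25, and with the pairs as a block no member was called (edgeR FDR 0.274 for FLT3 and 0.261 for IFNGR1). The groups did not overlap for 5 of 10 members in MV4-11, 6 in Molm-14 and 1 in THP-1, against 24.1%, 16.4% and 13.6% of all tested genes.

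**Figure D4:**
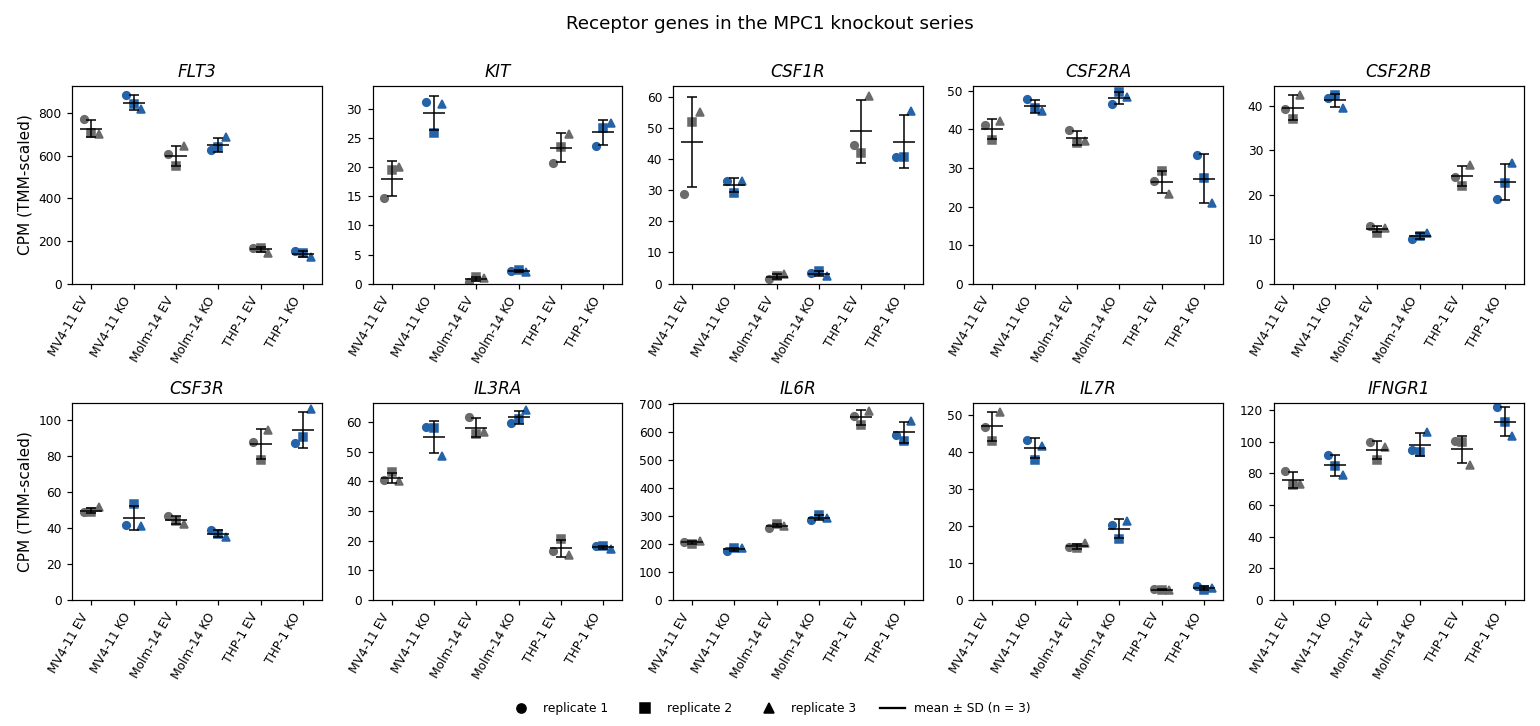
CPM of the 10 receptor genes in each library of the knockout series, with KO in blue, EV in grey, a symbol for each replicate number, and the mean ± SD of 3 libraries in black. Each vertical axis starts at 0. KIT is higher in KO than in EV in MV4-11 (29.3 against 18.1 CPM) and in Molm-14 (2.17 against 0.795 CPM), and MV4-11 EV replicate 1 lies apart for CSF1R.

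**Figure D5:**
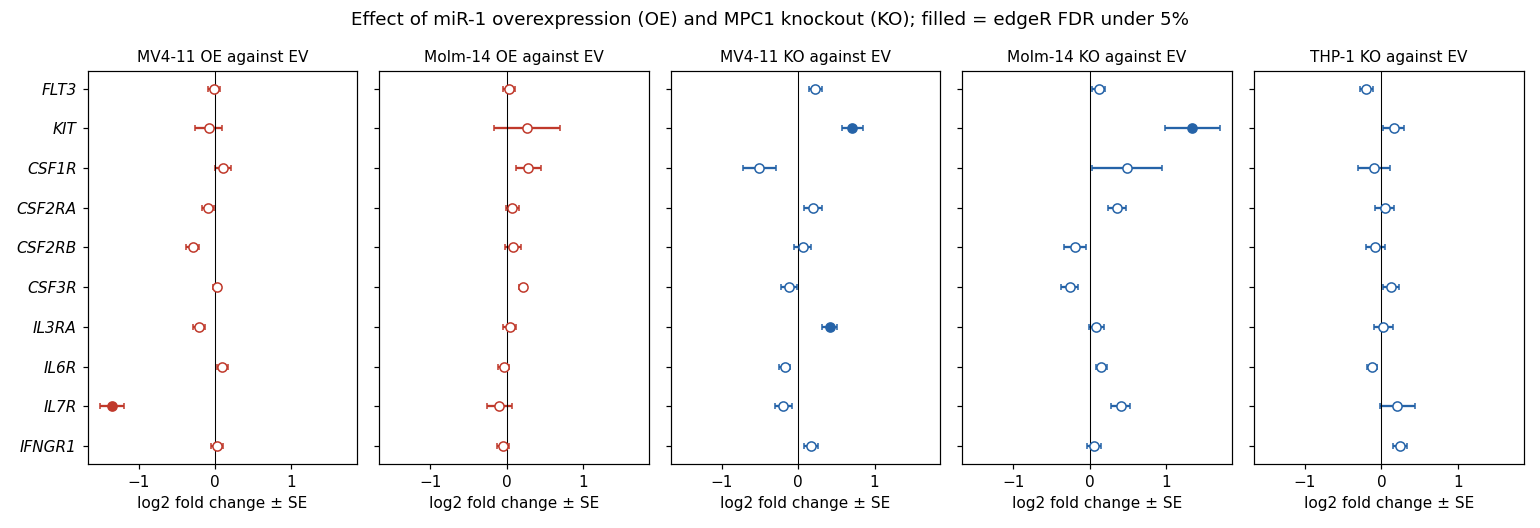
Log2 fold change ± SE of each receptor gene in the 5 comparisons of OE (red) or KO (blue) with EV, with filled circles for genes called at an edgeR FDR under 5%. The filled circles are IL7R in MV4-11 OE, KIT and IL3RA in MV4-11 KO, and KIT in Molm-14 KO.

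The genes around the receptors were described from 6 lists (ligands, partner chains, kinases with STATs and adaptors, feedback genes and targets, other receptors of myeloid cells, and transcription factors of receptor genes). The filter on low counts was passed by 3 of the 10 ligands in the overexpression table and by 1 in that of the knockout series. With miR-1 overexpression edgeR and DESeq2 each called 0 of 85 list genes in MV4-11 and 0 of 85 in Molm-14, where edgeR called 0.177% and 0.00570% of all tested genes. At an unadjusted p under 0.05 there were 5 and 2 list genes, against 5.90% and 4.38% of all tested genes. In THP-1 KO both tools called 0 of 81, where edgeR called 0.0897% of all tested genes, and 7 list genes had an unadjusted p under 0.05, against 8.01% of all tested genes. The lists were chosen with earlier results of these data known, so their shares are not independent evidence.

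In MV4-11 KO 12 of 81 list genes were called (14.8%, against 5.41% of all tested genes), 5 higher and 7 lower. The lists were chosen with earlier results known, so this share is not independent evidence. Single list genes were not followed in the fits that left out libraries, in this or the other comparisons. Over all genes, the count called here, 784, was 133 without EV replicate 3 and 1400 without EV replicate 1. Of the 23 kinases, STATs and adaptors, 1 rose and 1 fell. JAK1, a kinase that IL6R, IL7R and IFNGR1 signaling uses, rose from 210.5 ± 8.93 to 253 ± 4.92 CPM (log2FC 0.27, SE 0.079, edgeR FDR 0.0473), and the adaptor GAB2 fell (−0.38, edgeR FDR 0.0233). Of 17 feedback genes and targets, 2 rose and 1 fell. DUSP6, a phosphatase that ERK signaling induces and that switches ERK off, rose from 109.6 ± 6.84 to 141 ± 7.005 CPM (0.36, edgeR FDR 0.0178), IRF1, a transcription factor of the interferon response, rose (0.35, edgeR FDR 0.0210), and CISH, an inhibitor induced by STAT5, fell from 37.4 ± 7.70 to 24.0 ± 2.03 CPM (−0.63, SE 0.166, edgeR FDR 0.0289).

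Of 22 other receptors tested in MV4-11 KO, 1 rose and 3 fell, among them IL10RB (0.37, edgeR FDR 0.0167), INSR, the insulin receptor (−0.36, edgeR FDR 0.0371), and IL17RA (−0.33, edgeR FDR 0.0246). Of 14 transcription factors, 1 rose and 2 fell. IRF8, a factor of the monocyte and dendritic lineages, rose from 795 ± 80.0 to 961 ± 33.1 CPM (0.27, edgeR FDR 0.0463), and SPI1, the factor PU.1 that drives many myeloid receptor genes, fell from 61.4 ± 9.33 to 44.4 ± 5.22 CPM (−0.46, SE 0.137, edgeR FDR 0.0486). No ligand or partner chain was called by edgeR or DESeq2. At an unadjusted p under 0.05 there were 0 of the 1 ligand tested and 3 of the 4 partner chains tested, against 22.3% of all tested genes. The list medians lay between −0.07 (other receptors) and 0.50 (the single ligand tested), beside 0.02 over all tested genes and 0.11 over the 10 members.

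In Molm-14 KO 3 of 81 list genes were called (3.70%, against 2.40% of all tested genes). TNFRSF1B, a receptor of TNF, rose from 32.2 ± 1.31 to 45.9 ± 1.83 CPM (log2FC 0.52, SE 0.118, edgeR FDR 0.0124). IRF8 rose from 486 ± 40.2 to 868 ± 22.6 CPM (0.84, SE 0.083, edgeR FDR 1.40e-07), and GATA2, a factor of stem cells and early progenitors, fell from 19.9 ± 1.68 to 9.23 ± 1.498 CPM (−1.10, SE 0.167, edgeR FDR 1.35e-04). The members' median was 0.13, and that over all tested genes 0.00.

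The genes whose pattern was most like a member's were found by Pearson's r of log2 CPM over the 18 libraries of the knockout series, among 8675 genes that averaged 100 counts or more. The libraries fall into 3 lines, so r mainly ranks genes by how closely their differences between lines follow the member, and it is given as a description. NUDT5 (r = 0.995), MCMBP (0.994) and PCNA (0.994) were most like FLT3, and ZNF302 (0.983), PREX1 (0.981) and PKIB (0.981) were most like KIT. The closest gene was CNBP for CSF2RA (0.950), B3GNT7 for CSF2RB (0.984), RN7SL3 for CSF3R (0.974), BUB3 for IL3RA (0.992), BMP8B for IL6R (0.994), MIR124-1HG for IL7R (0.994) and TXN for IFNGR1 (0.959).

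On GRCh38 (GENCODE 44) the members are protein-coding genes that share no exon base with another annotated gene. FLT3 (ENSG00000122025) lies on chromosome 13 from 28003274 to 28100592, KIT (ENSG00000157404) on chromosome 4 from 54657267 to 54740783, and CSF1R (ENSG00000182578) on chromosome 5 from 150053291 to 150113372. CSF2RA (ENSG00000198223) lies on chromosome X from 1268800 to 1310381, IL3RA (ENSG00000185291) on chromosome X from 1336616 to 1382689, and CSF2RB (ENSG00000100368) on chromosome 22 from 36913628 to 36940439. CSF3R (ENSG00000119535) lies on chromosome 1 from 36466043 to 36483278, IL6R (ENSG00000160712) on chromosome 1 from 154405193 to 154469450, IL7R (ENSG00000168685) on chromosome 5 from 35852695 to 35879603, and IFNGR1 (ENSG00000027697) on chromosome 6 from 137197483 to 137219449.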

How the data were processed

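RNA was sequenced in 30 libraries, in 2 tables of raw counts per Ensembl gene that the authors deposited. The deposited counts were whole numbers, not normalized. Per the labels, libraries came from a stranded total RNA kit with ribosomal depletion, and per the submitters' processing notes and the study's methods, optical duplicates were removed, reads trimmed (cutadapt 1.16), aligned to GRCh38 with STAR 2.7.6a and assigned with featureCounts 1.6.3. Whether strand was used is not given in the sources used here.

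Counts were fitted with edgeR 4.0.16 in R 4.3.3 (filterByExpr, TMM, robust quasi-likelihood, a mean per group, 1 model per table), Benjamini-Hochberg adjusted over all tested genes, after testing on simulated data. Symbols and lengths came from GENCODE 44, seed matches from its 3′ UTRs. The members and lists were chosen with earlier results of these data known. Named list genes were up to 2 per direction, list and comparison with the largest change, of those called that averaged 100 counts or more. The gene most like CSF1R is not reported here. Replicate pairs differed beyond sampling noise (chi-square per degree of freedom at least 1.498). Same-numbered KO and EV libraries deviated together in THP-1 (correlations 0.371, 0.258 and 0.584), where the block changed no member's call, and not in the other lines. THP-1 KO replicate 1 also correlated with EV replicate 2 (0.361), so replicates 1 and 2 are not resolved as separate pairs. Alternatives were DESeq2 1.42.0, its size factors, no filter, the compared libraries alone, a replicate block, leaving out libraries and CPM without scaling factors. Counting error bounds low counts, and PCR copies are not independent molecules.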

Additional observations from a re-analysis of the deposited data

How the results depend on the processing

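The calls of IL7R in MV4-11 OE and KIT in MV4-11 KO held in every alternative run. Other counts of members called moved. For MV4-11 OE the count was 1, and 2 with no filter (CSF2RB). For Molm-14 OE it was 0, and 1 with only the libraries compared (CSF3R). For MV4-11 KO it was 2, 1 with only the libraries compared (KIT), 3 with DESeq2 (IL6R added), no filter (CSF1R added) or the replicate block (FLT3 added), and 1 to 3 when 1 replicate was left out. For Molm-14 KO it was 1, 0 with the replicate block, and 0 to 1 when 1 replicate was left out, and with only the libraries compared the 1 call was CSF2RA in place of KIT. For the difference of the OE effect between lines it was 0, 1 with DESeq2, with its size factors in edgeR or with no filter (IL7R each time), and 0 to 1 when 1 replicate was left out. For the KO effect it was 0 between MV4-11 and Molm-14, 1 with DESeq2 (IL6R), 2 with the replicate block (IL6R and IL7R) and 0 to 1 without single replicates. Between MV4-11 and THP-1 it was 0, and 1 with the block (FLT3), and between Molm-14 and THP-1 0, and 1 with DESeq2 (IL6R). The cause of these changes was not tested. Replicate numbers did not pair libraries in MV4-11 or Molm-14 (correlations of same-numbered libraries from −0.654 to 0.275), so a call gained or lost with the block there rests on numbers alone.

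Genes called over the whole table moved more. MV4-11 OE gave 31, with 9 (only the libraries compared), 15 (replicate block), 65 (DESeq2), 76 (without the 2 libraries high in interferon-stimulated genes, an alternative chosen after seeing the data) and 123 (no filter), and 12 without OE replicate 2 and 47 without OE replicate 1. Molm-14 OE gave 1, with 2 (block), 5 (DESeq2), 7 (no filter) and 195 (only the libraries compared). MV4-11 KO gave 784, with 356 (only the libraries compared) and 1474 (block). Without single replicates it gave 133 (EV 3), 158 (KO 1), 287 (EV 2), 331 (KO 2) and 1400 (EV 1), and Molm-14 KO, with 348, gave 183 (KO 2), 218 (EV 2) and 231 (KO 1). THP-1 KO gave 13, with 4 (only the libraries compared), 26 (DESeq2) and 30 (no filter), and 3 to 10 without single replicates. For the differences of effect, the OE count of 8 ran from 2 (block) to 33 (no filter), the MV4-11 to Molm-14 count of 215 from 105 (without MV4-11 EV replicate 3) to 388 (block), and the MV4-11 to THP-1 count of 28 from 18 (without MV4-11 EV replicate 3 or KO replicate 1) to 80 (no filter).

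Directions turned only in values near 0 that were not called. When 1 replicate was left out, log2FC values in MV4-11 OE ran from −0.0948 to 0.0766 for FLT3, −0.286 to 0.120 for KIT, −0.0067 to 0.0639 for CSF3R and −0.0553 to 0.0991 for IFNGR1, and in Molm-14 OE from −0.0011 to 0.0917 for IL3RA and −0.201 to 0.0068 for IL7R. FLT3 in MV4-11 OE was 0.0074 without the libraries high in interferon-stimulated genes. IFNGR1 in Molm-14 KO ran from −0.0107 to 0.0872. In THP-1 KO the ranges were −0.259 to 0.0725 for CSF1R, −0.129 to 0.199 for CSF2RA, −0.209 to 0.0434 for CSF2RB and −0.0589 to 0.166 for IL3RA. Differences of the OE effect ran from −0.126 to 0.0455 for FLT3 and −0.0080 to 0.146 for IFNGR1. Differences of the KO effect ran from −0.0018 to 0.326 for CSF2RA (MV4-11 to THP-1), and for Molm-14 to THP-1 from −0.232 to 0.0203 for CSF2RB and −0.0808 to 0.143 for IL3RA. Between EV groups, IFNGR1 ran from −0.0461 to 0.0782 (THP-1 to Molm-14) and CSF1R from −0.143 to 0.274 (THP-1 to MV4-11). Without scaling factors, 89 of 100 group means moved by less than 1 SD, and the largest move was 4.04%. Depth limits KIT and CSF1R in Molm-14 and IL7R in THP-1, with at most 30 counts in each library of the knockout series.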
